A study of Drosophila melanogaster with 9 samples.

Results

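The comparison described here is the knockdown of *chinmo* in neural tumors made by *pros* RNAi in the larval ventral nerve cord (VNC) of *Drosophila*. Its members were chosen by genotype alone: 3 libraries of *nab>prosRNAi* VNCs, called control, and 3 libraries of *nab>prosRNAi, chinmoRNAi* VNCs, called knockdown, which make 6 of the 9 libraries of the series. Control larvae carried *nab-GAL4*, *UAS-prosperoRNAi* and *UAS-dicer2*, and knockdown larvae carried the same transgenes together with *UAS-chinmoRNAi*. The transgenes against *pros* and for Dcr-2 are thus common to both groups, but the RNA levels of *pros* and *Dcr-2* differed, as given below. Per the methods of the study, *nab-GAL4* is active in all neuroblasts of the VNC, larvae were raised for 7 days at 18°C and 3 days at 29°C, and tissue was taken at the late larval stage. A library is a pool of 57 to 79 dissected animals in the control and of 58 to 78 in the knockdown. RNA of whole VNCs was measured, so tumor cells, neurons, glia and any attached tissue contribute to each value.

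Neuroblasts are the neural stem cells of the fly. They divide asymmetrically, and the smaller daughter, the ganglion mother cell, normally receives the homeodomain factor Pros, leaves the stem cell program and divides into neurons or glia. Without Pros, the daughters revert to neuroblast-like cells and form a tumor. Chinmo is a BTB zinc finger factor of early-born neurons and young neuroblasts, which belongs to a temporal series that ends when ecdysone and late factors move neuroblasts to a late state.

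The values are reads per gene divided by a size factor of the library, called normalized counts here. Reads on genes numbered 30677075 to 43415151 per library. Of 15340 genes in the table, 11470 had values that summed to at least 15 over the 6 libraries and were tested with limma on log2(normalized count + 1), a scale that understates the change of genes with few reads. A gene was called lower or higher in the knockdown at a Benjamini-Hochberg adjusted p-value under 0.05, and every adjusted p given below comes from this limma fit. All log2 fold changes are knockdown over control. The first principal component held 63.4% of the variance and separated the groups. The median standard deviation within a group was 0.11 on the log2 scale in the control and 0.21 in the knockdown. Knockdown libraries differed from each other by transcript length. Over 8665 genes, Spearman's correlation of a library's deviation from its group with length was 0.53 in knockdown A, 0.67 in knockdown B and -0.80 in knockdown C, and between -0.08 and 0.06 in the control. Control replicate B stood apart in genes of the salivary gland type (*ng3* was at 36.2, 2558 and 30.8 in control replicates A, B and C), control replicate C in gut and tubule genes (*Uro*, uricase, was at 0.928, 4.19 and 1060.4), and knockdown replicate A had reads on 12949 genes against 11926 to 12337 in the other 5 libraries. The results were refitted with the length trend removed and without each library, and the part of attached tissue in them was not tested.

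*chinmo* (Entrez gene 33343) was at 8190.1, 8533 and 8819 normalized counts in the control and at 5427, 6330.2 and 4518 in the knockdown, and the groups did not overlap. The log2 fold change was -0.66 ± 0.13 (SE, n = 3 and 3, adjusted p = 0.00824). The deposited counts do not separate neuroblasts from neurons, in which the driver is not described as active, so this is the change of the whole VNC. *pros*, the RNAi target that both groups share, rose from 17405, 19997 and 15859 to 35040.2, 42387 and 31510.1 (log2 fold change 1.03). *Dcr-2*, which codes for the dicer of the siRNA pathway and is also supplied by a GAL4-driven transgene, fell from 73432, 90454 and 97186 to 27234, 26758 and 21190.0 (log2 fold change -1.80). *nab*, the gene whose enhancer drives GAL4, fell too, with 19775, 17999 and 18455 in the control and 13334, 10181 and 10919.6 in the knockdown (log2 fold change -0.72). None of these groups overlapped. *nab* and *Dcr-2* RNA, both tied to the driver, were thus lower in the knockdown. In whole VNCs these values also depend on the share of neuroblasts, whose markers fell too, as given below. Whether the activity of the driver or the strength of *pros* RNAi differed was not tested. Of the pigment genes used as markers in fly transgenes, *w* fell (log2 fold change -0.60) while *v* and *y* rose (2.28 and 1.46), the calls of *w* and *y* being lost on leaving out control replicate A or B.

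Among the 11470 genes tested, 1617 were lower in the knockdown (14.1%) and 2048 were higher (17.9%). Gains were larger than losses: 1079 genes rose and 173 fell by at least 2-fold, and 288 rose and 46 fell by at least 4-fold. The median size of the change was 0.57 on the log2 scale among genes that fell and 1.04 among genes that rose, and the median over all genes tested was 0.05. All knockdown libraries lay below all control libraries at 23.4% of the genes tested and above them at 25.8%. Without control replicate A, 734 genes were lower and 1315 higher, and without control replicate B, 697 and 1285. In what follows, a library in brackets, such as control B, is one without which a named call is lost or a count of list members changes by over 1.5 times and by at least 3 genes. Removal of the length trend gave 2655 lower and 2469 higher genes, among which were 1610 of the 1617 and 2033 of the 2048. Quantile normalization, which moved the median of all genes to -0.08, turned the balance to 2188 lower and 1734 higher genes.

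**Figure D1:**
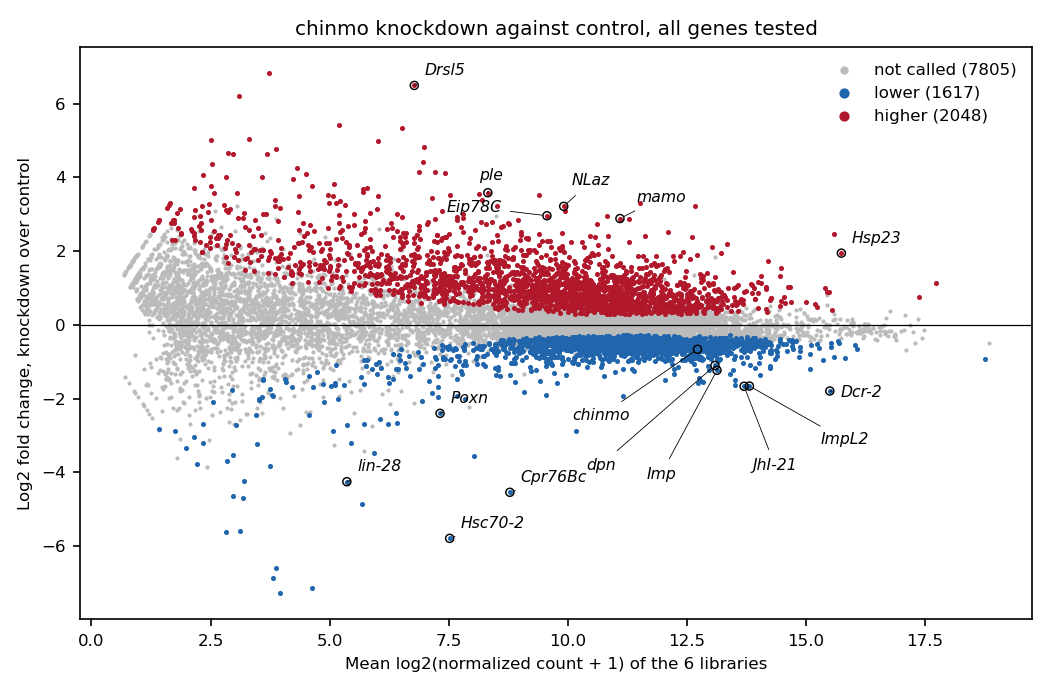
Log2 fold change of knockdown over control (vertical axis) against the mean log2(normalized count + 1) of the 6 libraries (horizontal axis) for the 11470 genes tested. Blue points are the 1617 genes called lower, red points the 2048 called higher and grey points the rest. More red than blue points lie beyond a 2-fold change (1079 against 173), and the labelled genes are described in the text.

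Of the 12 genes with the strongest loss, several were led by single control libraries. *CG14265*, *CG13460*, *CG14852*, *CG17134* and *CG8087*, together with the salivary gene *ng3* and *gl*, which codes for a photoreceptor zinc finger factor, were all highest in control replicate B. *CG14265* illustrates this with 126, 3393 and 15.8 in the control and 0, 0 and 0.937 in the knockdown (log2 fold change -7.28). *CG14850* was highest in control replicate A, with 108, 19.9 and 25.8 and 2.79, 0 and 0, and *LysE*, a gut lysozyme, in control replicate C. The other losses were not led by a single control library. *Hsc70-2*, a member of the Hsp70 chaperone family, went from 1397, 1389 and 1317 to 77.1, 12.6 and 13.1 (log2 fold change -5.79, adjusted p = 0.000842). *Cpr76Bc*, a gene of the cuticle protein family, went from 2257, 1869.7 and 2285 to 137, 115 and 46.8 (log2 fold change -4.54). *lin-28*, described below, is the other one. Among the 12 strongest losses, 3 were thus even across the control libraries. The *chinmo* overexpression libraries of the series are outside this comparison. *Hsc70-2* was at 27.6, 17.7 and 13.9 there and *Cpr76Bc* at 547, 824 and 664, so both were highest in the control. The calls of *CG17134* (knockdown A, B or C) and *ng3* (knockdown A) were lost without a bracketed library.

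The strongest gains started from a few reads or none. *CG11099* had no read in any control library and 71.6, 76.8 and 69.3 normalized counts in the knockdown, which is at least 25.8-fold higher against a floor of 3 reads per library. *Drsl5*, a gene of the drosomycin family of antifungal peptides, rose from 25, 10.5 and 4.16 to 1045, 682 and 1590.4 (log2 fold change 6.50, adjusted p = 0.000439). *Hsp70Ba*, a stress-inducible chaperone gene, rose from 1.86, 4.19 and 10.8 to 205, 427 and 153 (log2 fold change 5.41). With *chinmo* overexpression, *Hsp70Ba* was also above the control, at 259, 60.9 and 219, whereas *Drsl5* was at 0.950, 1.11 and 2.31. *CG18417* gave the most even knockdown values, at 586, 587 and 587, against 20.4, 7.33 and 15.8 in the control. *CG4525* and *CG3259*, named *Ttc26* and *IFT54* in the current annotation and coding for proteins of intraflagellar transport, the traffic that builds cilia, rose by 5.03 and 4.42 on the log2 scale. *CG13159*, *CG34244*, *CG7924*, *CG30098* and the cuticle gene *Cpr49Ae* rose by 6.83, 4.99, 4.83, 4.79 and 4.63. The last gene of the 12, *CG16826*, had no read in any control library. Knockdown replicate B alone carried most of *CG16826* (11.2, 432 and 5.62) and of *CG13159* (87.4, 466 and 68.4). The call of *CG16826* (control A, B or C or knockdown B) was lost without a bracketed library.

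Among the temporal genes, the early side of the series lost its RNA-binding members. *lin-28*, which codes for a conserved RNA-binding protein that blocks the processing of let-7 microRNAs in other animals, was at 153, 194 and 193 in the control and 13, 6.87 and 6.56 in the knockdown (log2 fold change -4.26 ± 0.34, adjusted p = 0.000306). *Imp*, the fly IGF2 mRNA-binding protein, was at 12344, 12769 and 16561 and 6423, 6906 and 4535 (log2 fold change -1.23 ± 0.19, adjusted p = 0.00292). The groups overlapped for neither gene. The nuclear receptor *svp*, which switches neuroblasts out of the early phase, also fell (-0.69). The POU factors *pdm2* and *nub*, which act earlier in the embryonic series, rose (1.91 and 1.07). Of the other embryonic factors, *hb* rose only just past the threshold (0.44, adjusted p = 0.0497), and *Kr* and *cas* were not called (0.37 and -0.07). Of the 8 late temporal genes, 5 rose and 1 fell. *mamo*, a BTB zinc finger factor of mushroom body neuron identity, showed the steepest gain, from 751, 1058 and 654 to 7373, 6589 and 4331 (log2 fold change 2.89 ± 0.24, adjusted p = 0.000356). The ecdysone-responsive factors *Eip74EF* (E74) and *Eip93F* (E93) rose by 1.89 and 1.20, *EcR* by 0.76 and *let-7-C*, the primary transcript of let-7, by 1.71 from a mean of 16 normalized counts. *Syp*, the RNA-binding protein that opposes Imp in neuroblasts, was at 65833, 65332 and 54215 and 58091, 50105 and 38046 with overlapping groups and a log2 fold change of -0.36 (adjusted p = 0.189). *br*, the broad complex of late-born neurons, was level as well within its error (-0.06, adjusted p = 0.820), and *fru* fell (-0.81). The calls of *hb* (control A, B or C or knockdown A or B) and *let-7-C* (control A, B or C or knockdown A or C) were lost without a bracketed library.

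Most genes of the neuroblast program fell. Of 33 genes of the list, 20 fell and 2 rose, against 14.1% and 17.9% of all genes tested, and the median log2 fold change was -0.71. All 8 defining neuroblast markers (*dpn*, *ase*, *wor*, *mira*, *insc*, *grh*, *klu* and *esg*) fell, and their summed level was 129613 to 145145 in the control and 63405 to 82513 in the knockdown. In bulk samples, fewer neuroblasts and less RNA per neuroblast cannot be told apart. *dpn*, the bHLH repressor that maintains self-renewal, was at 13833, 11849 and 12727 and 7068, 5345 and 5583 (log2 fold change -1.10 ± 0.13, adjusted p = 0.00120). *mira*, the adaptor that carries Pros into the daughter cell, was at 59733, 61797 and 54559 and 34418, 29033 and 28201 (-0.95). *klu*, *wor*, *ase* and *grh* changed by -1.12, -0.93, -0.93 and -0.88, and no control library overlapped with a knockdown library for any of them. The 2 genes that rose do not mark self-renewal: *nerfin-1*, a zinc finger factor that keeps young neurons from reverting, went from 2241, 2667 and 1858 to 6658, 6056 and 4663 (1.36), and *zfh1*, a factor of motor neurons and mesoderm, from 1686, 1869.7 and 2004 to 6109, 6412 and 4231 (1.57). The call of *esg* (control A, B or C) was lost without a bracketed library.

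**Figure D2:**
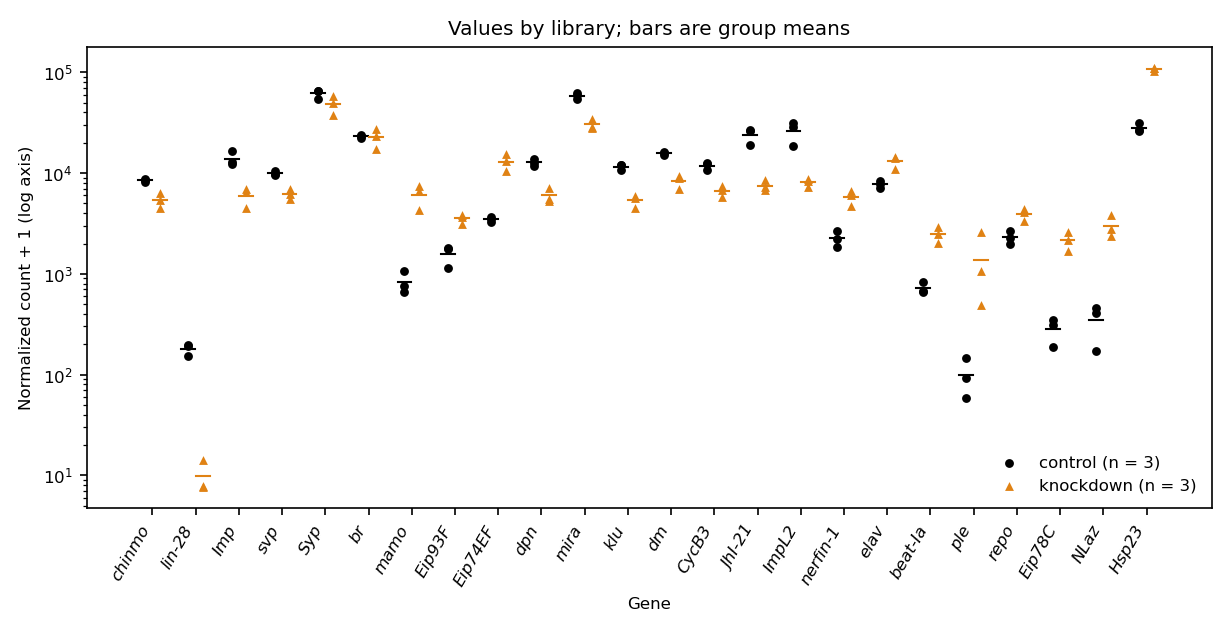
Normalized counts (vertical log axis, shown as value + 1) of temporal, neuroblast and neuronal genes in each library; black circles are the 3 control libraries, orange triangles the 3 knockdown libraries, and short bars the group means. The *lin-28* points of the knockdown lie between 6.56 and 13 against 153 to 194 in the control, whereas *Syp* and *br* overlap.

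The apparatus of asymmetric division fell in part, with 9 of 24 genes lower and 4 higher. The cargo adaptors *mira* and *pon* (-0.91), the spindle-orienting genes *insc* (-0.81) and *mud* (-0.76), the Par complex gene *baz* (-0.70), *numb* (-0.69), which inhibits Notch in a daughter cell, and *l(2)gl* (-0.61) fell. *brat*, which codes for the translational repressor segregated with Mira, was not called (0.39, adjusted p = 0.109). The 4 that rose were the myosin gene *sqh* (0.42), the kinesin gene *Khc-73* (0.48), the G protein gene *Gbeta13F* (0.36) and *rap* (0.68), the fly Fizzy-related, which promotes exit from the cell cycle. The calls of *sqh* (control B) and *Khc-73* and *Gbeta13F* (control A, B or C or knockdown A or B) were lost without a bracketed library. Counts changed to 1 (control B) higher members for asymmetric division.

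Genes of cell division fell as well. Of 43 DNA replication genes, 34 fell and none rose (median -0.58). Among them were *Mcm2* (-0.76) and *Mcm6* (-0.76) of the replicative helicase, *Orc1* (-0.77) and *Cdc6* (-0.79) of origin licensing, and the polymerase subunits *DNApol-epsilon* (-0.86) and *DNApol-delta* (-0.85). Of 51 mitosis genes, 37 fell and 1 rose (median -0.71), and the gene that rose was *rap*. *CycB3* was at 12559, 12258 and 10814 in the control and 7434, 6752 and 5819 in the knockdown, with no overlap (log2 fold change -0.84 ± 0.12, adjusted p = 0.00259). *polo* (-0.75), a mitotic kinase, *Incenp* (-0.93) of the chromosomal passenger complex and the kinesin gene *Klp61F* (-0.89) fell alike, whereas *stg*, the Cdc25 phosphatase that triggers entry into mitosis, missed the threshold (-0.41, adjusted p = 0.0523). Of 32 repair genes, 24 fell and none rose (median -0.64). Of 12 G1 to S regulators, 5 fell and none rose, led by *Rbf2* (-1.06), a retinoblastoma family repressor, and *CycE* (-0.79), whereas *dap*, the Cdk inhibitor, was not called (0.05, adjusted p = 0.822). Counts changed to 2 (control A or B) lower members for G1 to S regulators and 20 (control B) lower members for DNA replication.

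Growth genes fell too. *dm*, the fly Myc, was at 16094, 15882 and 15188 and 8858, 9394 and 6966 without overlap (log2 fold change -0.91 ± 0.13, adjusted p = 0.00233). Of 15 genes of the Myc network and cell growth, 10 fell and none rose, with *Max* (-0.48), *bigmax* (-0.76) and *Mio* (-0.67), the bHLH partner of *bigmax*, among them. *Mnt*, the repressor of the network, was not called (0.24). Of 42 genes of RNA polymerase I and ribosome assembly, 36 fell and none rose (median -0.59), for example *Fib* (-0.74), which methylates ribosomal RNA, *Nop60B* (-0.70) and *RpI135* (-0.70), a polymerase subunit. The ribosome itself gave an unstable result: 3 of 91 cytosolic ribosomal protein genes fell and 2 rose (median -0.15), with values that differed among the knockdown libraries. Both that rose, *RpS19b* (1.46) and *RpS5b* (1.04), are paralogs known from the germline. Removal of the length trend gave 19 lower and 2 higher. Of 72 mitochondrial ribosomal protein genes, 9 fell and none rose. The lower share, 12.5%, did not exceed the 14.1% of all genes tested. Once the trend was removed, 33 fell, in a fit that called 2655 lower genes instead of 1617. Among 31 translation initiation factors, 9 fell and none rose, and removal of the trend gave 15. The calls of *Max* (control A or B), *RpS19b* (control A, B or C or knockdown A or C) and *RpS5b* (control A or C) were lost without a bracketed library. Counts changed to 23 (control B) lower members for RNA polymerase I and ribosome assembly, 0 (control A or B) or 63 (knockdown C) lower members for cytosolic ribosomal proteins, 3 (control A or B) or 5 (knockdown B) or 48 (knockdown C) lower members for mitochondrial ribosomal proteins and 2 (control A or B) or 5 (knockdown A or B) lower members for translation initiation factors.

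Amino acid supply split in opposite ways. Among the transporters, 3 of the cationic and heterodimeric families fell by more than 2-fold. *JhI-21*, a light chain that carries leucine, was at 19035, 26467 and 26582 and 8474, 6825 and 7223 (log2 fold change -1.67 ± 0.16, adjusted p = 0.000553). *CG5535*, of the cationic amino acid transporter family, was at 9690.3, 12567 and 13799.8 and 4469, 3217 and 4288 (-1.59), and *mnd*, the second light chain, fell by the same order (-1.48). *slif*, the best known cationic transporter of the fat body, was not called (-0.22). Of all 19 transporters, 5 fell and 6 rose, the latter led by *CG1139* (1.24) and the glial transporter *Eaat2* (1.20). Of 20 cytosolic tRNA synthetases, 11 fell and 1 rose, and *Aats-asn* for asparagine fell most, from 14992, 18560.1 and 18274 to 7352, 6733 and 6563 (log2 fold change -1.32), followed by *Aats-ile* (-1.04) and *Aats-his* (-0.98). Outside the lists and chosen after their values were seen, *asparagine-synthetase* fell (-1.13), as did *CG1673*, named *Bcat* in the current annotation for branched-chain aminotransferase (from 2097, 3917 and 3860.0 to 357, 521 and 413, -2.89). With *chinmo* overexpression, *CG1673* was also below the control, at 739, 596 and 560, and *JhI-21* was at 19051, 19583 and 17602. In the knockdown, the synthesis of serine and glutamine went the other way. *CG6287*, the fly phosphoglycerate dehydrogenase at the entry of serine synthesis, rose from 1034, 1087 and 1029 to 2632, 2739 and 3449.7 (1.47), *CG11899*, the phosphoserine aminotransferase, from 308, 428 and 175 to 1704, 1527 and 1542 (2.47), and the phosphatase *aay* by 0.66. The mitochondrial glutamine synthetase *Gs1* rose from 1484, 1794 and 1947 to 5869.6, 5784 and 5814 (1.75), *Oat*, ornithine aminotransferase, by 1.30, and *Gdh*, glutamate dehydrogenase, fell (-0.53). All 3 steps from a glycolytic intermediate to serine were thus higher in the knockdown. The calls of *aay* (control A or B or knockdown B) and *Gdh* (control A, B or C or knockdown A or C) were lost without a bracketed library. Counts changed to 5 (control A) or 4 (control B) lower members for cytosolic tRNA synthetases and 5 (control A) or 4 (control B) higher members for serine, glutamine and polyamine metabolism.

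Among nucleotide and one-carbon genes, 13 of 29 fell and 2 rose (median -0.38). *Ts*, thymidylate synthase (-0.79), *r*, the first enzyme of pyrimidine synthesis (-0.65), and both subunits of ribonucleotide reductase, *RnrL* (-0.52) and *RnrS* (-0.49), fell. The entry enzyme of purine synthesis has a pair of genes, of which *Prat* fell (-0.64) and *Prat2* rose (1.86). Few genes of energy metabolism were called. Of 20 glycolytic genes 3 fell and 2 rose (15% and 10%, against 14.1% and 17.9% of all genes tested), so the lower share was near the background. The rate-limiting *Pfk* (-0.50) and *PyK* (-0.53) were lower, the glucose transporter *Glut1* was higher (1.09), and *ImpL3*, lactate dehydrogenase, was not called (0.29, adjusted p = 0.250). Of 57 genes of the respiratory chain and ATP synthase 1 fell and none rose, and of 27 citric acid cycle genes 2 fell and 3 rose. The calls of *RnrL* (control A or B or knockdown A, B or C), *RnrS* (control A or B or knockdown B or C), *Pfk* (control A) and *PyK* (control A or C or knockdown A) were lost without a bracketed library. Counts changed to 6 (control A or B) lower members for nucleotide and one-carbon synthesis, 0 (control A) lower members for glycolysis and lactate, 5 (knockdown C) lower members for respiratory chain and ATP synthase and 0 (control A or B) higher members for citric acid cycle.

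Lipid and lysosomal genes were on the side of the gains. Of 36 genes of fatty acid and sterol metabolism, 1 fell and 9 rose. *NLaz*, a secreted lipocalin, had the largest gain, from 453, 407 and 171 to 2802, 2383 and 3817 (log2 fold change 3.22 ± 0.36, adjusted p = 0.00100). The lipid droplet coat genes *Lsd-1* (1.57) and *Lsd-2* (0.63), *mdy*, a diacylglycerol acyltransferase that makes storage fat (1.05), and *Lpin*, the phosphatase just before it (1.08), rose, and *LpR2*, a lipoprotein receptor, fell (-0.81). The synthetic enzymes *ACC* and *CG3523*, a fatty acid synthase, were not called (-0.33 and -0.02). Of 27 subunits of the vacuolar proton pump, 13 rose and none fell (median 0.52), such as *Vha16-1* of the membrane ring (0.62) and *Vha68-1* of the catalytic head (0.82). Autophagy genes rose, at a share near the background, in 2 of 11 cases, *Atg7* (0.48) and *Atg4* (0.32). Of 34 proteasome subunits, 1 fell and 2 rose. The calls of *LpR2* (control B or C or knockdown A or C), *Vha68-1* (control A or B), *Atg7* (control A or B or knockdown A) and *Atg4* (control A, B or C or knockdown A or B) were lost without a bracketed library. Counts changed to 14 (knockdown C) higher members for fatty acid and sterol metabolism, 7 (control A) or 6 (control B) higher members for vacuolar ATPase subunits, 6 (knockdown C) higher members for autophagy genes and 6 (knockdown C) higher members for proteasome subunits.

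Several small heat shock genes and glutathione S-transferases rose. Of 23 heat shock genes, 9 rose and 1 fell, the latter being *Hsc70-2*. *Hsp23* went from 31362, 26176 and 26605 to 102770.2, 109826 and 110704 (log2 fold change 1.95 ± 0.14, adjusted p = 0.000233), with knockdown values that lie close together. *Hsp67Bc* (2.95), *Hsp67Ba* (1.79), *Hsp26* (1.07) and *Hsp27* (0.88), which share a chromosomal cluster with *Hsp23* and are known to respond to ecdysone as well as to heat, rose too. *Hsp68* (1.61) and the endoplasmic reticulum chaperone *Hsc70-3* (0.62) followed. *Hsp68* was at 1913, 1889 and 2071 in the control and at 10337, 2289 and 7275 with *chinmo* overexpression. *Hsp23* was at 33798, 26504 and 37387 with *chinmo* overexpression. The *Hsp70* genes are near-identical copies, so the split of reads among them is uncertain. Of 30 glutathione S-transferases 8 rose and none fell, led by *GstE3* (1.93) and *GstO3* (1.80). Cytochrome P450 genes moved in both directions, 13 up and 5 down of 75. *Cyp6d5* rose (3.45), and *Cyp28a5* (-1.91) and *Cyp4ac3* (-2.56) fell. Background rates for these counts are the same 14.1% and 17.9%, and the count of higher P450 genes is near the latter. The call of *Hsc70-3* (control A, B or C or knockdown A or B) was lost without a bracketed library. Counts changed to 4 (control A) or 5 (control B) higher members for glutathione S-transferases and 8 (control B) higher members for cytochrome P450.

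**Figure D3:**
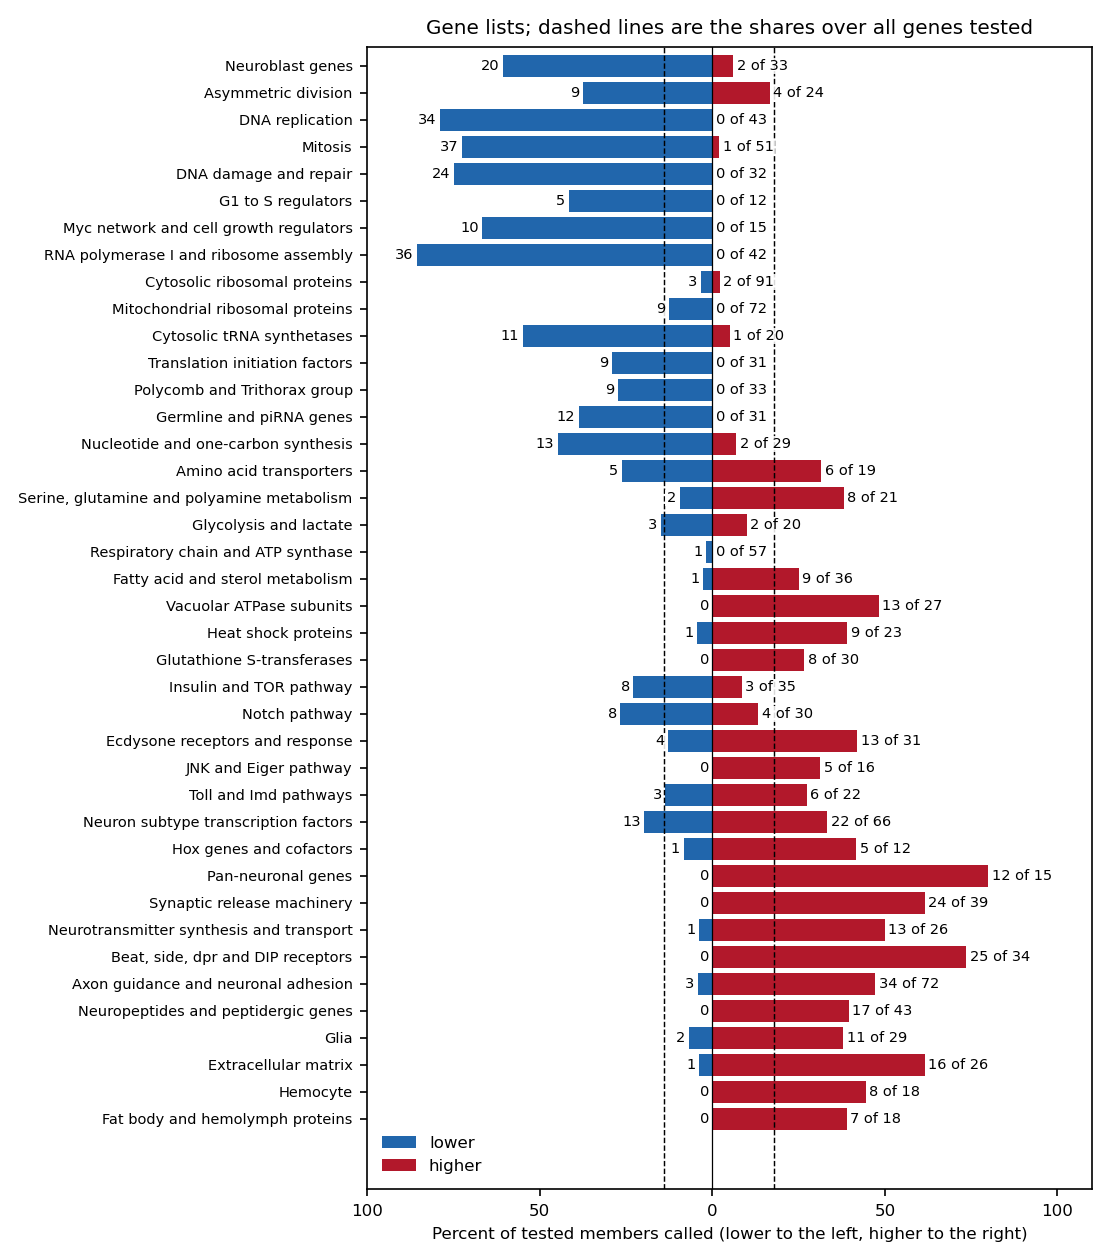
Share of tested members (horizontal axis, percent) that were lower (blue bars, to the left) or higher (red bars, to the right) in the knockdown, for 40 gene lists grouped by theme, with the counts printed at the bars. Dashed lines mark the shares over all genes tested, 14.1% lower and 17.9% higher; the blue bars of replication, mitosis, repair and ribosome assembly and the red bars of neuronal lists reach farthest beyond them.

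Ecdysone response genes were among the lists with the most calls on the higher side. The steroid ecdysone binds the receptor pair EcR and Usp and switches on early genes, many of them nuclear receptors, before metamorphosis. Of 31 genes of receptors and response, 13 rose and 4 fell (median 0.40). *Eip78C*, an early nuclear receptor gene, went from 311, 343 and 185 to 2586, 2154 and 1685 (log2 fold change 2.96 ± 0.26, adjusted p = 0.000409). *ImpE1*, an ecdysone-inducible gene of imaginal tissue, went from 2266, 2136 and 1298 to 12169, 11719 and 8433 (2.53). No library of the groups overlapped for either gene. *Blimp-1* (2.45), a repressor that times the response, *E23* (2.07), a transporter that dampens it, *Eip63F-1* (2.14), *Hr4* (1.37), *Eip75B* (0.99) and *Hr46* (0.78), which codes for DHR3, rose as well. The receptor gene *EcR* rose from 4179, 4393 and 4753 to 7307, 9356 and 6183 (0.76), while *usp* was not called (0.10). Genes of uptake and competence fell. *Oatp74D*, the ecdysone importer, fell from 8899.9, 6662 and 7600.2 to 2955, 3817 and 2495 (-1.33, adjusted p = 0.00164), as did the coactivator *tai* (-1.06) and the competence factor *ftz-f1* (-1.20). Chosen after its values were seen, *Sox14*, an ecdysone-induced factor needed for neuronal remodelling, rose from 844, 1039 and 865 to 7618, 7777 and 5153 (2.88). Larvae of both groups were taken at the same nominal stage, and whether the groups differed in age relative to the hormone pulse was not tested. The calls of *Blimp-1* (control B or knockdown A or B), *Hr4* (control A or C or knockdown A or B) and *Hr46* (control B or C or knockdown A or B) were lost without a bracketed library.

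In the insulin and TOR list, 8 of 35 genes fell and 3 rose (median -0.20), and removal of the length trend gave 16 lower genes. The strongest losses among well-read genes included inhibitors of the pathway. *ImpL2*, a secreted protein that binds and blocks insulin-like peptides, was at 18652, 31532 and 28509 and 8711, 8312 and 7333 (log2 fold change -1.66 ± 0.20, adjusted p = 0.00117). *Thor*, the 4E-BP that holds back translation when TOR is low, was at 11704, 13972 and 12186 and 3819, 3947 and 5149 (-1.56, adjusted p = 0.000441). The receptor *InR* (-0.60), its adaptor *chico* (-0.56) and the transcription factor *foxo* (-0.47) fell by less. *Akt1*, *Tor* and *Pi3K92E* were not called, with log2 fold changes of -0.00, 0.13 and -0.23. Gains were seen in *Ilp6*, an insulin-like peptide of fat body and glia that went from 403, 461 and 444 to 1718, 1724 and 1572 (1.94), *Sesn*, an inhibitor of TOR (1.51), and *CG3837*, the secreted decoy receptor Sdr (0.93). *Ilp8*, the peptide that delays metamorphosis when tissues overgrow, fell from a low level, with 5.57, 25.1 and 10.8 in the control and 0.929, 0 and 0 in the knockdown (-3.35). The ligand and receptor of the Alk pathway, which sustains neuroblast growth in poor diets, both rose: *jeb* by 0.94 and *Alk* by 0.75. The calls of *InR* (control A or B), *foxo* (control A, B or C), *Ilp8* (control B) and *jeb* (control A or B or knockdown A) were lost without a bracketed library. Counts changed to 5 (control B) lower members for insulin and TOR pathway.

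The Notch pathway, which keeps neuroblasts in self-renewal, had a lower receptor and a lower ligand. The receptor *N* fell from 14341, 14651 and 12765 to 9249, 8302 and 6289.7 (log2 fold change -0.82 ± 0.15, adjusted p = 0.00630), and the ligand *Dl* from 4017, 4055 and 3584 to 2565, 2472 and 1837 (-0.77). The groups overlapped for neither gene. The effector *Su(H)* (-0.45) and *neur* (-0.62) and *spdo* (-0.74), which act in signal sending and receptor traffic, fell as well, whereas the second ligand *Ser* was not called (-0.06). Targets of the E(spl) complex split: *E(spl)mgamma-HLH*, the member known from neuroblasts, fell from 1805, 1730.5 and 1630.2 to 901, 711 and 865 (-1.07), *E(spl)m8-HLH* fell (-0.59), *E(spl)mbeta-HLH* rose (0.48), and *E(spl)m6-BFM* rose (1.82). In all, 8 of 30 genes fell and 4 rose (median -0.11). In the EGF receptor list 6 of 27 fell and 5 rose (22.2% and 18.5%, against 14.1% and 17.9% of all genes tested), so the higher share was near the background. The ligand *spi* (-0.54) and the feedback inhibitor *aos* (-0.61) fell, the ligand *vn* rose (0.46), and *Egfr* itself was not called (-0.29). The calls of *Su(H)* and *E(spl)mbeta-HLH* (control A or B or knockdown B), *neur*, *E(spl)m8-HLH* and *aos* (control A or B), *spi* (control B) and *vn* (control A, B or C or knockdown A or B) were lost without a bracketed library. Counts changed to 5 (control A or B) lower members for Notch pathway, 1 (control A) or 0 (control B) or 3 (knockdown A) lower members for EGF receptor and Ras pathway and 2 (control A or B) or 8 (knockdown C) higher members for EGF receptor and Ras pathway.

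Other pathways changed mainly by single ligands, receptors and targets. In the JNK list, 5 of 16 genes rose and none fell, with *Mmp1*, a matrix metalloprotease and JNK target, going from 772, 1175 and 566 to 5526, 4508 and 3142 (log2 fold change 2.42 ± 0.29, adjusted p = 0.00123). The AP-1 genes *kay* (Fos, 0.84) and *Jra* (Jun, 0.70) and the TNF receptor *wgn* (0.79) rose, but the ligand *egr* and the kinase *bsk* were not called (0.04 and 0.25). In the Toll and Imd list 6 of 22 rose and 3 fell (27.3% and 13.6%, against 17.9% and 14.1% of all genes tested), so the lower share was near the background. The receptor *Tl* went from 1094, 1245 and 1327 to 3755, 4665 and 3107 (1.64) and its ligand *spz* from 450, 439 and 589.7 to 2018, 2149 and 1615 (1.97). *Drs*, the drosomycin gene, was high in knockdown replicates A and C only (238, 21.8 and 346, against 8.35, 12.6 and 15.8 in the control). Of the 16 antimicrobial peptide genes tested, *Drs* and *Drsl5* alone were called, and *Dpt*, a target of the Imd branch, was not (0.49). Called or not, 15 of the 16 had a log2 fold change above 0, with a median of 1.19. The call of *Drs* (control A, B or C or knockdown A or C) was lost without a bracketed library. Counts changed to 3 (control A or knockdown B) higher members for Toll and Imd pathways.

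Of 23 BMP and activin genes 6 rose and 1 fell, with the activin ligands *daw* (1.04), *Actbeta* (0.75) and *mav* (0.50), the neuronal BMP receptor *wit* (1.03) and the extracellular regulator *cv-2* (1.47) higher, *gbb*, a BMP ligand, lower (-0.33) and *dpp* not called (0.38). Of 31 Wnt genes 8 rose and 1 fell. *Wnt4* was the ligand that rose, from 1805, 1715 and 1883 to 4012, 4748 and 3358 (1.15), and *wg* was level within its error (-0.00, adjusted p = 0.996). In the Hippo and Fat list 1 of 19 genes fell and 4 rose (5.3% and 21.1%, against 14.1% and 17.9% of all genes tested). *hpo*, the kinase of the pathway, was higher (0.61), and *ex*, an upstream regulator at the cell cortex and a target of Yorkie, fell from 7003, 6936 and 6244 to 3591, 4013 and 2353 (-1.05), whereas *yki* and *wts* were not called (0.03 and -0.13). Of 14 Hedgehog genes 1 rose and none fell with all 6 libraries, and 6 fell once the length trend was removed. Of 13 JAK/STAT genes none rose and 2 fell, *ken* (-0.85) and *Su(var)2-10* (-0.41). The lower share, 15.4%, was near the 14.1% of all genes tested. The ligand *os* (*upd1*) and the receptor *dome* were not called (0.02 and 0.15). The calls of *daw* (control A or B), *mav* (control A or B or knockdown A), *gbb* (control A or B or knockdown A or B) and *Su(var)2-10* (control A, B or C or knockdown A) were lost without a bracketed library. Counts changed to 4 (knockdown B) lower members for BMP and activin pathway, 3 (control A) or 4 (control B) or 5 (control C or knockdown B) or 14 (knockdown C) higher members for Wnt pathway and 4 (knockdown C) higher members for JAK/STAT pathway.

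**Figure D4:**
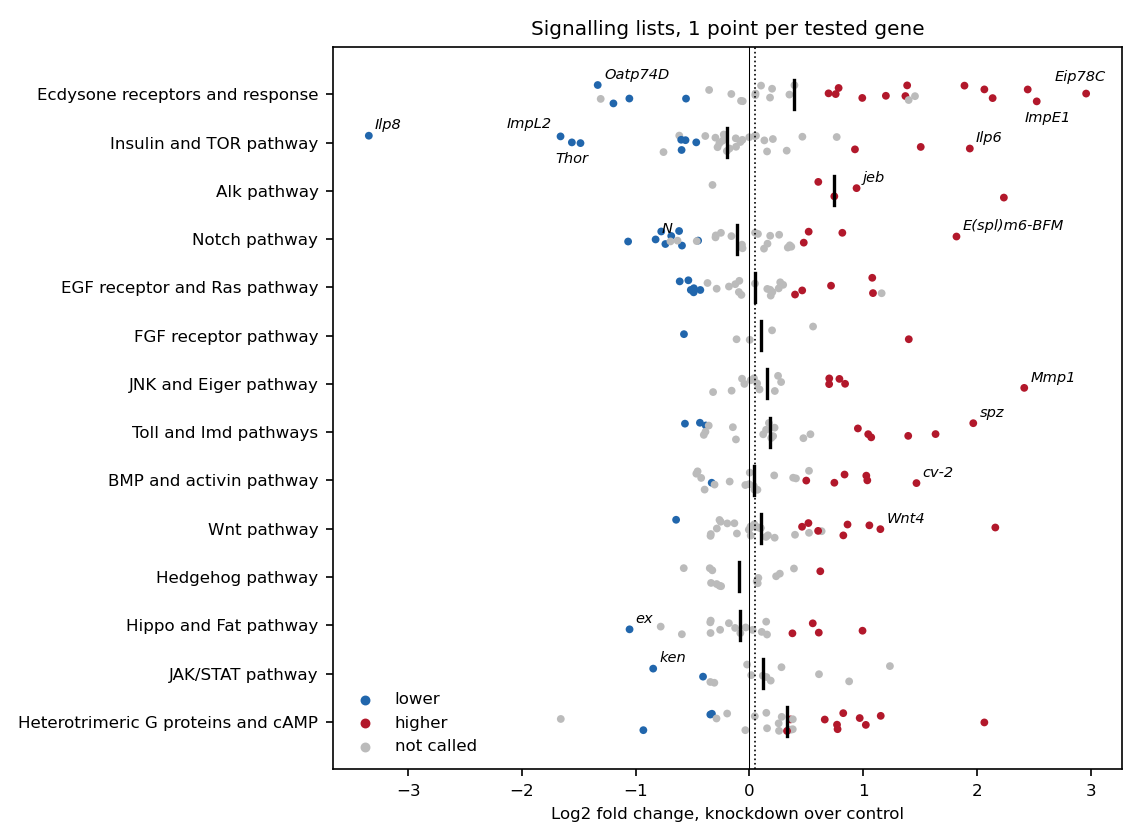
Log2 fold change of knockdown over control (horizontal axis) for every tested gene of 14 signalling lists (rows); blue points are genes called lower, red points genes called higher, grey points genes that were not called, and a black bar is the median of the list. The dotted line is the median of all genes tested, 0.05. *Ilp8*, *ImpL2* and *Thor* stand at the left of the insulin and TOR row and the early genes at the right of the ecdysone row.

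Transcription factors of neuronal identity changed in both directions. Of 66 neuron subtype factors 13 fell and 22 rose (median 0.25). *Poxn*, a paired-domain factor of VNC neuroblasts and sense organs, fell from 456, 325 and 331 to 79.0, 71.0 and 57.1 (log2 fold change -2.40 ± 0.22, adjusted p = 0.000465). Others that fell, *eg* (-1.26), *ind* (-1.10) and *unpg* (-1.06), are known from the patterning of neuroblasts and their early progeny. *bab1* rose from 76.1, 83.8 and 90.7 to 249, 424 and 241 (1.81) and *bab2* from 1078, 1111 and 1067 to 2705, 3517 and 2136 (1.33). *Fer2* (1.59), of dopaminergic neurons in the brain, *Lim1* (1.12), *Lim3* (0.94) and *tup* (1.00), of the LIM code of motor neurons and interneurons, and *unc-4* (1.13) rose as well. Of 12 Hox genes and cofactors, *Scr* (1.50), *pb* (1.17), *Ubx* (0.42), *abd-A* (0.71) and *Abd-B* (1.17) rose, and *Antp*, of the thoracic segments, fell (-0.43). The calls of *Ubx* (control A or B or knockdown A or B), *abd-A* (control B) and *Antp* (control A, B or C or knockdown B) were lost without a bracketed library.

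In a list of BTB factors that includes *chinmo* and is not limited to zinc finger factors, 8 of 17 genes fell and 4 rose. *mamo*, *bab1*, *bab2* and *CG16778* (1.02) rose, while *lola* (-0.49), *mod(mdg4)* (-0.45), *ken*, *fru*, *Trl* (-0.75), *pfk* (-0.53) and *Cp190* (-0.59) fell beside *chinmo*. Of 20 nuclear receptors 9 rose and 3 fell, the latter *eg*, *ftz-f1* and *svp*. Polycomb and Trithorax group genes moved downward, with 9 of 33 lower and none higher (median -0.30), and 22 lower once the length trend was removed. *E(z)* (-0.38), *esc* (-0.56), *Su(z)12* (-0.68) and *Caf1* (-0.42), the subunits of the PRC2 histone methyltransferase, were all among them, as was *Pc* (-0.61). *ph-p*, *Psc* and *ph-d*, of the PRC1 complex, were not called (-0.24, -0.26 and -0.29). The calls of *lola* and *Caf1* (control A or B or knockdown A or B), *mod(mdg4)* (control A or B or knockdown B), *Trl* (control B), *Cp190* and *esc* (control A or B), *E(z)* (control A or B or knockdown A) and *Pc* (control A) were lost without a bracketed library. Counts changed to 3 (control A or B) or 5 (knockdown A) lower members for Polycomb and Trithorax group and 5 (control A) or 4 (control B) lower members for BTB factors.

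Neuronal genes made up the broadest gain. Of 15 pan-neuronal genes 12 rose and none fell (median 0.74), and 6 of the 7 defining neuronal markers rose, the exception being *futsch* (0.31, adjusted p = 0.139). *elav* was at 8408, 7856 and 7159 and 14009.6, 14504 and 10896 (log2 fold change 0.74 ± 0.14, adjusted p = 0.00589). The summed level of the markers was 51712 to 67246 in the control and 78949 to 110598 in the knockdown. Control replicate C was the highest of its group and knockdown replicate C the lowest of the other, and the gap between the groups was narrow next to the spread within them. Of 39 genes of synaptic release 24 rose and none fell (median 0.68), including *brp* (0.72) and *Rim* (1.08) of the active zone and the calcium sensors *Syt1* (0.74) and *Syt4* (1.17), whereas *cac*, the calcium channel, and *Syx1A* were not called (-0.12 and 0.04). The calls of *brp* and *Syt1* (control A or B or knockdown A or B) were lost without a bracketed library. Counts changed to 11 (control A or B) higher members for synaptic release machinery and 6 (control A or B or knockdown B) or 7 (knockdown A) higher members for pan-neuronal genes.

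Surface receptors that label neurons for their partners rose in large part. Of 34 genes of the Beat, Side, Dpr and DIP families, 25 rose and none fell, with a median of 0.97. *beat-Ia*, a receptor that frees motor axons from each other, went from 678, 656 and 837 to 2465, 2941 and 2039 (1.77), and *side*, its ligand on muscle and along the path, from 1032, 1064 and 1189 to 2724, 2847 and 2204 (1.24). Among 72 genes of axon guidance and adhesion 34 rose and 3 fell (median 0.45). *Fas1* (1.33), *Fas2* (1.23), *klg* (1.54), *NetA* (1.05), *NetB* (0.90) and *robo3* (1.12) rose, *fra*, the Netrin receptor, was level within its error (0.00), and *CG6490*, the Ig family gene *plum*, fell from 11006, 11626 and 11425 to 4610.4, 4882 and 3319 (-1.43). *hig*, a secreted protein of the synaptic cleft, fell as well (-1.16), so not every gene of this kind was on the side of the gains. Counts changed to 16 (control B) higher members for Beat, side, dpr and DIP receptors and 52 (knockdown C) higher members for axon guidance and neuronal adhesion.

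Of 26 genes of transmitter synthesis and transport 13 rose and 1 fell. The largest gains were in a set that makes and modifies dopamine: *ple*, tyrosine hydroxylase and the rate-limiting enzyme, went from 144, 92.1 and 57.4 to 2574, 1071 and 493 (log2 fold change 3.59 ± 0.58, adjusted p = 0.00369), *Ddc*, dopa decarboxylase, from 322, 311 and 562 to 1522, 1904 and 1559 (2.11), and *Pu*, which supplies the pterin cofactor, by 1.72. *e*, ebony, and *b*, black, which couple dopamine to beta-alanine, rose by 2.07 and 3.36. These enzymes also serve the tanning of cuticle, and their source tissue was not tested. The vesicular transporters *VGlut* (0.96), *VGAT* (0.96), *VAChT* (0.66) and *Vmat* (0.96) rose by similar amounts, and they mark glutamate, GABA, acetylcholine and monoamine neurons, while *Gad1* and *Cha*, which make GABA and acetylcholine, were not called (-0.07 and 0.44). Of 9 nicotinic receptor subunits 6 rose, of 24 glutamate and GABA receptors 10, of 18 monoamine and muscarinic receptors 10, and none of these lists had a member that fell. Voltage-gated and other channels had 18 higher and 3 lower of 41, and *para*, the sodium channel, was not called (0.33). Among 43 neuropeptide and peptidergic genes 17 rose and none fell, for example *Ccap* (1.42), *hug* (1.20), *capa* (0.85) and the convertase *amon* (1.35), whereas *dimm*, the master factor of peptidergic cells, was not called (0.41). The calls of *VAChT* (control A or B or knockdown A or B) and *Vmat* and *capa* (control A or B) were lost without a bracketed library. Counts changed to 10 (control A or B) higher members for neuropeptides and peptidergic genes, 5 (control A or knockdown A or B) or 4 (control B) higher members for glutamate and GABA receptors, 5 (control A or B) or 6 (knockdown A or B) higher members for monoamine and muscarinic receptors and 9 (control A or B) or 10 (knockdown A) or 11 (knockdown B) higher members for voltage-gated and other ion channels.

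Glial genes rose in part, with 11 of 29 higher and 2 lower (median 0.44). *repo*, the homeodomain factor of lateral glia, was at 2251, 1995 and 2661 and 4073, 4397 and 3355 (log2 fold change 0.78 ± 0.15, adjusted p = 0.00640). *alrm*, of astrocyte-like glia, went from 3897, 3729 and 6522 to 8594, 9346 and 16510.5 (1.27) and *Obp44a*, an abundant odorant binding protein of glia, from 148983, 133481 and 159616 to 282247, 264989 and 458716 (1.14), with knockdown replicate C highest for the latter. *moody*, of the blood-brain barrier, rose (0.76), and *wrapper*, of midline and cortex glia, rose (0.46), whereas *nrv2* (-0.64) and the glutamate transporter *Eaat1* (-0.41) fell. Of the 8 defining glial markers 4 rose and 2 fell, and their sums were 28587 to 37677 in the control and 35641 to 41779 in the knockdown, which overlap. The calls of *alrm* and *Obp44a* (control A or B), *wrapper* (control B) and *Eaat1* (control A or C or knockdown A or B) were lost without a bracketed library. Counts changed to 6 (control A) or 5 (control B) higher members for glia.

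Of 26 extracellular matrix genes 16 rose and 1 fell (median 0.67). Laminin subunits *LanB1* (0.89) and *LanB2* (1.39), the matrix proteases *Mmp1* and *Mmp2* (1.06), their inhibitor *Timp* (0.98) and *Tig* (1.20) rose, while the collagen IV genes *vkg* and *Cg25C* were not called (0.03 and 0.09). Hemocyte genes rose in 8 of 18 cases with none lower. The clearance receptors *nimC2* (from 136, 276 and 116 to 947, 1859 and 772, 2.75), *nimC1* (1.77), *eater* (1.44) and *crq* (1.21) and the GATA factor *srp* (2.11) rose, but *Hml*, a defining gene of plasmatocytes, was at 3391, 2799 and 5861 and 2896, 6319.9 and 2735 with overlapping groups (-0.05). The summed level of the 6 hemocyte markers was 6164 to 12094 in the control and 12008 to 20641 in the knockdown, so the groups overlap slightly. The call of *Tig* (control A or B or knockdown B) was lost without a bracketed library.

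Other tissues left traces in the libraries. Of 18 fat body genes 7 rose and none fell. *Fbp1*, the receptor for larval serum proteins and an ecdysone target, went from 13336, 34667 and 19926 to 99369, 156651 and 99502 (2.46), while *Lsp2* was at 14723, 54050.3 and 48343 and 32511, 114211 and 56695 and varied within both groups (0.82, adjusted p = 0.333). The fat body markers summed to 54975 to 212274 in the control and 180375 to 505642 in the knockdown, so the groups overlap. All 5 tracheal markers rose, among them *trh* (1.07), the selector of trachea, and *btl* (1.40), its FGF receptor, and their sums were 2960.4 to 3087 and 4727 to 6729. *Cht5*, a chitinase, rose from 114, 116 and 53.2 to 1102, 919.9 and 844 (3.40). Of 7 muscle markers *Mhc*, the muscle myosin (-1.52), and *Mef2* (-1.27) fell, and the other 5 were not called.

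Salivary markers were low in every library, with sums of 232 to 907 in the control and 63.2 to 577 in the knockdown, and 2 of 6 glue genes fell, *Sgs7* and *Sgs8* (-3.20 and -2.88). *Sgs3* was at 44.5, 107 and 238 and 0.929, 55.0 and 11.2, which overlap. Of 6 gut and tubule markers none was called and their sums reached 1733 in control replicate C. Of 6 ring gland markers 1 rose, *sro* (1.52), and their sums were 144 to 516 in the control and 178 to 223 in the knockdown. Of 6 optic lobe and eye disc markers 1 fell, *eya* (-0.69). No marker of these tissues was at 0 in all libraries of a group, and how far attached tissue contributes to the results above was not tested. The calls of *Sgs7* and *Sgs8* (control A, B or C or knockdown A or C) and *eya* (control A or B or knockdown A) were lost without a bracketed library.

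**Figure D5:**
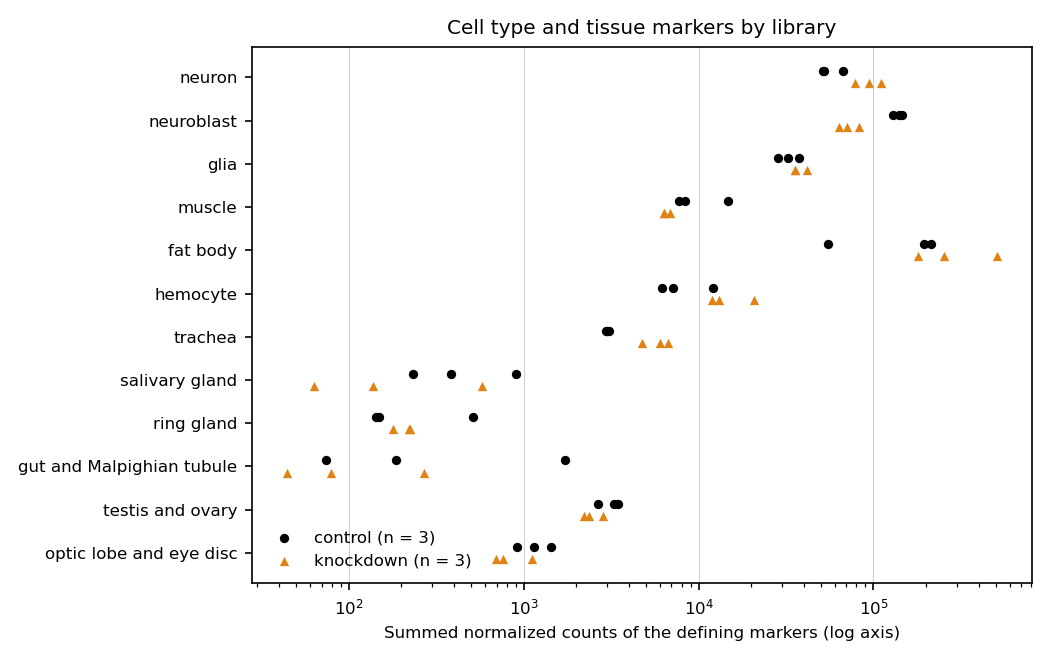
Summed normalized counts of the defining markers of 12 cell types or tissues (rows) in each library, on a horizontal log axis; black circles are control and orange triangles knockdown libraries. Neuroblast sums fall from between 129613 and 145145 to between 63405 and 82513, neuronal and tracheal sums rise without overlap, and fat body, salivary and gut sums spread over more than 2-fold within a group.

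Germline and piRNA genes, which some fly neural tumors express, fell in 12 of 31 cases and rose in none (median -0.42). *BoYb*, a Tudor-domain helicase of the piRNA pathway, went from 324, 329 and 263 to 83.6, 83.6 and 64.6 (log2 fold change -1.97 ± 0.20, adjusted p = 0.000664), and *mael* (-1.21), *krimp* (-1.13) and *del* (-0.96) fell too. The Argonaute genes at the heart of the pathway, *piwi* and *aub*, and the germline helicase *vas* were not called (0.07, 0.28 and -0.39). Among 21 apoptosis genes 7 rose and 3 fell (33.3% and 14.3%, against 17.9% and 14.1% of all genes tested), so the lower share was near the background. *W*, the death inducer *hid*, rose from 129, 129.8 and 111 to 246, 326 and 155 (0.91) and *skl* by 0.71, but so did the inhibitor *th* (Diap1, 0.44) and the Bcl-2 family gene *Buffy* (1.85), and *rpr* and *grim* were not called (0.86 and -0.35). The initiator caspase *Nc* (Dronc) rose (0.53) and *dream* fell (-0.88). Members with opposite functions thus rose side by side. The calls of *W* (control A, B or C or knockdown A or B), *skl* (control A, B or C) and *Nc* (control A or knockdown A) were lost without a bracketed library. Counts changed to 4 (control A) higher members for apoptosis.

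Of 211 long noncoding RNAs with a CR name, 11 fell and 20 rose (5.2% and 9.5%), both below the 14.1% and 17.9% of all genes tested. *CR43283*, an abundant RNA by its normalized count, went from 637094, 623531 and 567240.1 to 394617, 323012 and 254620.4 (log2 fold change -0.93, adjusted p = 0.0321). *CR31386* fell from 23545, 20967 and 17483 to 6402, 4856 and 9220.5 (-1.64), and *CR44137*, an antisense RNA in the current annotation, rose from 55.7, 45.0 and 61.5 to 393, 377 and 422 (2.86). *roX1*, an RNA of the male dosage compensation complex, fell (-0.89), and *roX2* was not called (0.59, adjusted p = 0.302). The call of *CR43283* (control A, B or C or knockdown A or B) was lost without a bracketed library. Counts changed to 5 (control A) or 7 (control B or C or knockdown B) or 17 (knockdown C) lower members for long noncoding RNAs named CR and 9 (control A) or 7 (control B) or 13 (knockdown A) or 11 (knockdown B) or 12 (knockdown C) higher members for long noncoding RNAs named CR.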

How the data were processed

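Poly-A RNA of dissected VNCs was sequenced in stranded libraries of single reads. Per the labels and the methods of the study, the authors demultiplexed reads with CASAVA 1.8.2, aligned reads to the dm3 genome with TopHat2 2.0.9 and Bowtie2 2.1.0, counted them per gene with HTSeq 0.5.3p9 and normalized them with DESeq, given as 1.2.5 in the processing notes. The deposited signal is thus a normalized count, reads divided by a size factor. The values were whole multiples of the value of 1 read in 100.0% of cases (tolerance 0.001 read), which gave back the reads for count tests. Reads on genes were 30677075 to 43415151 per library. The floor in reads covers counting error only, whereas each SE comes from the limma fit and reflects the spread between libraries of a group. Replicates are separate pools of animals.

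Groups were taken from the genotype labels. Log2(normalized count + 1) of the 6 libraries was fitted with limma 3.58.1 in R 4.3.3 (eBayes with a mean-variance trend, two-sided, Benjamini-Hochberg adjustment, threshold 0.05) for genes whose values summed to at least 15. The *chinmo* overexpression libraries entered only an alternative fit of all 9 libraries. Their values are printed for a few genes, chosen after they were seen. Alternatives were other pseudocounts, filters and scalings, removal of the length trend (lowess of each library on the log2 length of the longest transcript), quality weights, the replicate block, count tests on recovered reads (edgeR 4.0.16 with TMM scaling, quasi-likelihood, and DESeq2 1.42.0), and fits without each library. Scripts were tested on simulated data. Tables and plots were made with Python 3.11.15 and matplotlib 3.10.9.

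The comparison, its members and the 80 gene lists were chosen with earlier results of these data known, so counts over a list are descriptions. Genes were named if they were *chinmo*, *pros*, *nab* or *Dcr-2*, if they were among the 12 lowest or 12 highest called fold changes with a mean of at least 50 in a group and no overlap, or if they led a list by called fold change (up to 6), define it by their role or belong to a list of at most 8 genes, and any others were chosen after their values were seen. Symbols are those of the deposited table, with current names, lengths and chromosomes from a later annotation that matched 15021 of 15340 genes, and no coordinates were used.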

Additional observations from a re-analysis of the deposited data

How the results depend on the processing

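With 1617 lower and 2048 higher genes as the reference, the count of lower genes became 2655 with the length trend removed, 3319 (with 4058 higher) with sample quality weights, 2716 with the length trend removed in a fit with the replicate block, and 2478 with the length trend removed and without knockdown replicate C, a choice made after seeing the data. Leaving out 1 library gave 697 to 2294 lower and 1285 to 2473 higher genes, the lowest of each without control replicate B. The replicate block alone gave 1536 and 1916. The deviations of libraries with the same letter correlated at 0.51 for A, -0.08 for B and 0.15 for C, and not every library correlated best with its own letter, so the letters were not taken as pairs. On the recovered reads, edgeR called 1735 and 1980 genes and DESeq2 2021 and 2193. The share of calls on the higher side was 55.9% and 44.2% after quantile normalization. The cause of these shifts was not tested. The fold change of *chinmo* kept its sign and its call in all settings. Of 286 called genes named in the text, none changed sign in any setting, 230 kept their call in all settings with 6 libraries and 208 in all settings. Of 56 lists with a median at least 0.2 from 0, 50 kept its sign in all settings. The exceptions were BTB factors (-0.41 to 0.01), chemoreceptors and odorant binding proteins (-0.17 to 0.41), cuticle proteins (-0.29 to 0.53), cytochrome P450 (-0.09 to 0.52), gut and tubule (-2.17 to 0.07) and UDP-glycosyltransferases (-0.17 to 0.90). Genes with few reads, such as *lin-28* in the knockdown, have the widest counting error.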

Other observations

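Odorant binding proteins are small secreted carriers of lipophilic molecules. Of 69 chemoreceptor and odorant binding protein genes 12 rose and 5 fell (17.4% and 7.2%). Neither share exceeded that over all genes tested, 17.9% higher and 14.1% lower, so the genes below are single cases. *Obp99a* went from 4658, 4694 and 5191 in the control to 13919, 15453 and 30030.2 in the knockdown (log2 fold change 1.94, adjusted p = 0.00200 in the limma fit) and *Obp99b* from 6358, 11816 and 14661 to 19165, 45839 and 45207 (1.72), and neither gene had overlapping groups. *Obp83ef* rose from a low level, 13, 49.2 and 13.3, to 154, 199 and 216 (3.13). Sugar receptor genes were on the other side, with *Gr64a* at 43.6, 47.1 and 45.7 in the control and 0, 4.58 and 0 in the knockdown (-4.71) and *Gr64f* at 15.8, 33.5 and 29.1 and 0.929, 1.15 and 0.937 (-3.70). Both were chosen after their values were seen. The ionotropic receptor gene *Ir76a* fell as well, from 1113, 1101 and 1073 to 571, 496 and 445 (-1.13). The call of *Obp99b* (control A) was lost without a bracketed library. Counts changed to 3 (control A) or 4 (control B) or 7 (control C or knockdown C) or 5 (knockdown B) higher members for chemoreceptors and odorant binding proteins.

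Cuticle protein genes changed in both directions, 12 up and 6 down of 69 (17.4% and 8.7%). Neither share exceeded that over all genes tested, 17.9% higher and 14.1% lower. *Cpr49Ac* rose from 2373, 4267 and 2010.2 to 16149, 15515 and 11432 (2.38), whereas *Cpr64Ac* fell from 8559, 11377 and 9535 to 5459.8, 4628 and 5702 (-0.90). In the list of G proteins and cAMP, 10 of 27 genes rose and 3 fell. *G-oalpha47A*, the Go subunit of the nervous system, went from 7684, 7547 and 9678 to 16534, 19555 and 14588 (1.02) and *Pka-R2*, a regulatory subunit of protein kinase A, from 1310.0, 1389 and 1788 to 3281, 3668 and 2987 (1.15), while *norpA*, the phospholipase C of phototransduction, fell from 5308, 5863 and 5634 to 3084, 3328 and 2458 (-0.93). *Aldh*, an aldehyde dehydrogenase, fell from 14199, 10447 and 11972 to 7404, 7040.4 and 7153 (-0.75), and *CG31075*, of the same family, rose from 2086, 3308 and 2723 to 7555, 10620.2 and 8406 (1.72). Among genes of the optic lobe and eye, *ey*, the Pax6 factor that also marks some neuroblasts, fell from 2984, 3098 and 2748 to 1584, 1583 and 1334 (-0.97). Counts changed to 3 (control A or knockdown A) lower members for cuticle proteins and 6 (control A or B) or 16 (knockdown C) higher members for heterotrimeric G proteins and cAMP.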
